A study of Mus musculus with 6 samples.

Results

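The integrin receptor subunits described here are 10 genes of the 27151 in the deposited expression table. They are Itga1 and Itga2, whose products bind collagen, Itga3 and Itga6, whose products bind laminin, and Itga5, Itgav, Itgb3 and Itgb5, whose products take part in receptors for the RGD motif of fibronectin, vitronectin and related proteins. Itga9, a receptor subunit for tenascin and other ligands, and Itgb1, the beta subunit shared by most of these receptors, complete the list. The genes were chosen by name, and selected on their FPKM in these 6 libraries and its difference between the groups, which were known when the list was made. Levels and differences of the 10 genes are therefore given as a description, and their calls in the fit across all genes are counted without being read as support.

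The libraries are RNA sequencing libraries of granulosa cells from mouse ovary, the steroid-making somatic cells around the oocyte. There were 3 libraries of cells kept with GSK4112 and 3 of control cells kept without it. GSK4112 is a synthetic compound that activates NR1D1, also called REV-ERB alpha, a nuclear receptor of the circadian clock that represses its target genes. All cells came from punctured follicles, spent 24 h in medium with serum and 12 h without it, and were then treated or left untreated for 24 h, with the medium renewed every 12 h. The protocol in the labels is for cultured cells, whereas the series' design text speaks of treatment in vivo. No genotype, strain or age is stated in the labels. They also leave unsaid whether each library had its own culture or animal, so spreads and p-values cover these samples and may be technical.

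Integrins are heterodimers of an alpha and a beta subunit that span the plasma membrane, bind matrix proteins outside the cell and connect to actin inside it through talin, kindlin and other adaptors. The alpha subunit largely sets the ligand, and the cell surface carries only assembled pairs, so the subunit in short supply limits how much receptor can form. In the ovarian follicle, granulosa cells rest on a basal lamina of laminins and type IV collagens, and integrins with the Itgb1 product are among the receptors through which they contact it.

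Levels are in FPKM, fragments per kilobase of exon scaled to library size, a unit that allows genes of different length to be set side by side. The libraries held between 16559259 and 18158282 fragments as read back from the FPKM steps, and 12012 to 12290 genes had at least 1 FPKM in each. Of 10 granulosa cell markers, 9 had a mean of at least 1 FPKM, with sums of 1975 to 2871 FPKM in the GSK4112 libraries and 2644 to 3312 FPKM in the control libraries. Most of that sum came from Inha in every library. No oocyte marker, of 6 in the table, and no endothelial or platelet marker, of 8, had a mean of 1 FPKM. Of 6 markers of the ovarian surface epithelium 3 did, with sums of 1.63 to 5.68 FPKM with GSK4112 and 2.80 to 6.81 FPKM in control cells. Replicate 1 stood apart from the other libraries in both groups: 8 markers of theca and stroma summed to 144 FPKM in GSK4112 replicate 1, against 74.2 and 87.2 FPKM in the other GSK4112 libraries, and to 268 FPKM in control replicate 1, against 54.8 and 56.3 FPKM in the other control libraries. Of those 8 genes, 3 had a mean of at least 1 FPKM, and the theca enzyme gene Cyp17a1 was between 0 and 0.0555 FPKM in all 6 libraries. Most of the theca and stroma sum came from Acta2 in every library. Among the 10 integrin subunits, 7 had replicate 1 as the highest library of both groups.

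Promoter sequences are shown for 4 subunits: the neighbouring collagen receptor genes Itga2 and Itga1, and Itgb1 and Itgb5, the most abundant subunits. Each is the 250 bases before the transcription start in RefSeq on GRCm38.p6, written 5′ to 3′ on the strand of the gene. Itga2 and Itga1 lie one behind the other on the minus strand of chromosome 13, with 20995 bases between them. Capitals mark matches, on either strand, to the nuclear receptor half-site AGGTCA, the AP-1 letters TGANTCA, the E-box CACGTG, the TEAD letters GGAATG or the GC box GGGCGG.
Itga2, chr13:114932101-114932350, minus strand: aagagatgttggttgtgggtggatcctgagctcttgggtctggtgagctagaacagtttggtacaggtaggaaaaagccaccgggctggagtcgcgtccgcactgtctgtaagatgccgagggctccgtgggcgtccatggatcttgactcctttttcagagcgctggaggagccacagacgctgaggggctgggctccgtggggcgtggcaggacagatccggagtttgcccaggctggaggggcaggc
Itga1, chr13:115101965-115102214, minus strand: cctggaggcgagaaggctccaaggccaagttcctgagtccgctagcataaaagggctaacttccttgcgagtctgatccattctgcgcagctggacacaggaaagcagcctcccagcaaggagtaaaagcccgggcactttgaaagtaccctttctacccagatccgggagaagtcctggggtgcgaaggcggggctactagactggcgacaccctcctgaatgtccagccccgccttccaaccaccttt
Itgb1, chr8:128685404-128685653, plus strand: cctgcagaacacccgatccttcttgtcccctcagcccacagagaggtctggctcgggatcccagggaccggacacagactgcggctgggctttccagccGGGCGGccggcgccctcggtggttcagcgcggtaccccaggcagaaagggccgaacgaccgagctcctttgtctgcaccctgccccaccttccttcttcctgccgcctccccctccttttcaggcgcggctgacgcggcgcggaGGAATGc
Itgb5, chr16:33829415-33829664, plus strand: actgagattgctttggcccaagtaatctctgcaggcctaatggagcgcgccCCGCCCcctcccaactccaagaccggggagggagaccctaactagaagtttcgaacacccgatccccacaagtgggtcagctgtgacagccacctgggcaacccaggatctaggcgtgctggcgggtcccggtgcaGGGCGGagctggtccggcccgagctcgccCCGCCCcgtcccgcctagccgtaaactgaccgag
RefSeq windows were found for 8 of the 10 subunits. The window of Itga9 lies inside the longer gene annotated by GENCODE, as does the Itga3 window at chr11:95069199-95069448. Itga3 also had a window at chr11:95076715-95076964. The half-site AGGTCA, the letters to which NR1D1 and related receptors bind, occurred in 0 of these 8 genes' windows and in 14% of the 32851 mouse windows searched. AP-1 letters and the E-box also occurred in none of them, beside 6.75% and 6.02% of all windows. The GC box occurred in the windows of Itga3, Itga5, Itgb1 and Itgb5, beside 32.7% of all windows, and TEAD letters in that of Itgb1 at 7 bases before the start, beside 12.6% of all windows. The windows of Itga1, Itga2, Itga9 and Itgav held none of the letters searched, and these counts say only which letters lie in the windows. The matches of different motifs did not overlap one another in the windows shown.

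The collagen-binding subunits were the class with the largest proportional difference. Itga2 encodes the alpha subunit of the collagen receptor also known from platelets and epithelia, and is annotated as ENSMUSG00000015533 at chr13:114833081-114932100 on GRCm38, the build of all gene coordinates here. It had 2.28, 2.13 and 2.05 FPKM in GSK4112 replicates 1, 2 and 3, against 9.33, 7.37 and 7.79 FPKM in control replicates 1, 2 and 3. All GSK4112 libraries lay below all control libraries, and the gap between the groups was wider than the range of either. The mean was 2.15 ± 0.117 FPKM with GSK4112 and 8.17 ± 1.03 FPKM in control cells (SD, n = 3 each), a ratio of 0.264. On the log2(FPKM + 1) scale, which understates changes of low genes, the difference of GSK4112 minus control was -1.53 ± 0.110 (SE of limma). Within same-numbered libraries that log2 difference was -1.65, -1.42 and -1.53. Between 252 and 1208 fragments per library lay behind these values.

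Itga1, the alpha subunit of a second collagen receptor that prefers type IV collagen, is ENSMUSG00000042284 at chr13:114953096-115101964 and was the least abundant of the 10 genes. Its level was 0.356, 0.214 and 0.195 FPKM in GSK4112 replicates 1, 2 and 3, against 0.672, 0.492 and 0.637 FPKM in control replicates 1, 2 and 3. Again no GSK4112 library reached a control library, but all 6 values were under 1 FPKM and the gene was left out of the fit by the filter on a mean of at least 1 FPKM. The ratio of the means was 0.425, from 63 to 227 fragments per library. Of its 18599 exon bases, 685 are shared with the predicted gene Gm49395 on the same strand, and fragments there cannot be assigned. Gm49395 itself averaged 0.0913 ± 0.0198 FPKM with GSK4112 and 0.219 ± 0.147 FPKM in control cells (SD, n = 3 each).

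**Figure D1:**
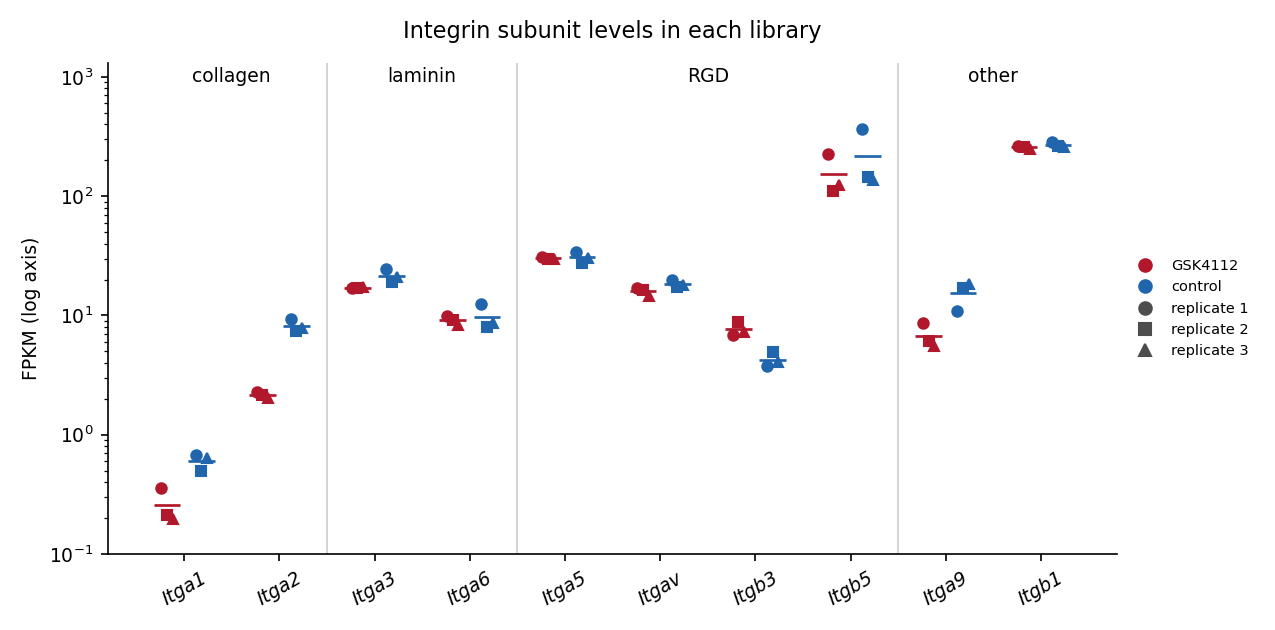
Level of each of the 10 integrin subunit genes in FPKM (log axis) in every library, GSK4112 in red left of control in blue, with the shape giving the replicate number and the bar the group mean of 3 libraries. Itga2 lies between 2.05 and 2.28 FPKM with GSK4112 and between 7.37 and 9.33 FPKM in control cells, and Itgb3 is the gene whose GSK4112 libraries all lie above the control libraries.

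The laminin-binding subunits differed less between the groups. Itga3, the alpha subunit of a receptor for laminins of basal laminae, is ENSMUSG00000001507 at chr11:95044474-95076801. It had 16.9, 16.9 and 17.2 FPKM in GSK4112 replicates 1, 2 and 3, against 24.7, 19.0 and 21 FPKM in control replicates 1, 2 and 3. The nearest control library, at 19.0 FPKM, was above all GSK4112 libraries, and the log2(FPKM + 1) difference was -0.32 ± 0.105 (SE).

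Itga6, which encodes the alpha subunit of another laminin receptor, is ENSMUSG00000027111 at chr2:71745616-71858416. Its level was 9.89, 9.07 and 8.29 FPKM in GSK4112 replicates 1, 2 and 3 and 12.5, 7.98 and 8.64 FPKM in control replicates 1, 2 and 3. Here the groups overlapped, control replicate 1 being above and control replicate 2 below every GSK4112 library. The log2 difference was -0.07 ± 0.166 (SE), and without control replicate 1 its sign turned, to 0.11. Itgb4, the partner with which the Itga6 product forms the hemidesmosome receptor, was low, at 0.393 ± 0.0598 FPKM with GSK4112 and 0.361 ± 0.102 FPKM in control cells (SD, n = 3 each).

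Among the RGD-binding subunits Itgb3 had the largest log2 difference between the groups, and that of Itgb5 was smaller than its SE. Itga5, the alpha subunit of the main fibronectin receptor, is ENSMUSG00000000555 at chr15:103344286-103366763. It was at 30.7, 29.9 and 29.5 FPKM in GSK4112 replicates 1, 2 and 3 and at 34.1, 27.4 and 30.4 FPKM in control replicates 1, 2 and 3. The 3 GSK4112 libraries fell inside the control range, and the log2(FPKM + 1) difference was -0.02 ± 0.0954 (SE).

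Itgav, the alpha subunit of the vitronectin receptors and of receptors that activate latent TGF-beta, is ENSMUSG00000027087 at chr2:83724397-83806916. It had 17.0, 16.3 and 14.5 FPKM in GSK4112 replicates 1, 2 and 3, against 19.9, 17.4 and 18.0 FPKM in control replicates 1, 2 and 3. No overlap was seen, though GSK4112 replicate 1 and control replicate 2 were close to each other. Its log2 difference was -0.20 ± 0.0934 (SE).

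Itgb3, a beta subunit that pairs with the Itgav product in the vitronectin receptor and with the Itga2b product in platelets, is ENSMUSG00000020689 at chr11:104608000-104670476. It was the only one of the 10 genes with a higher mean in GSK4112 cells. Its level was 6.88, 8.75 and 7.27 FPKM in GSK4112 replicates 1, 2 and 3, against 3.74, 4.90 and 4.04 FPKM in control replicates 1, 2 and 3. Every GSK4112 library lay above every control library, and in both groups replicate 2 was highest and replicate 1 lowest. The mean was 7.63 ± 0.987 FPKM with GSK4112 and 4.23 ± 0.60 FPKM in control cells (SD, n = 3 each), a ratio of 1.81. The log2(FPKM + 1) difference was 0.72 ± 0.127 (SE), and within same-numbered libraries it was 0.73, 0.72 and 0.71.

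The platelet partner gene Itga2b was at 0.483 ± 0.109 FPKM with GSK4112 and 0.356 ± 0.0878 FPKM in control cells (SD, n = 3 each). The 8 endothelial and platelet markers summed to 1.34 to 1.43 FPKM in the GSK4112 libraries and 1.28 to 1.46 FPKM in the control libraries, and the platelet genes Gp9 and Pf4 stayed at or below 0.206 and 0.241 FPKM. The 8 immune markers summed to 17.1 to 39.6 FPKM with GSK4112 and 7.60 to 42.3 FPKM in control cells, most of it from Lyz2, a lysozyme gene of myeloid cells. Of these 8 genes 3 had a mean of at least 1 FPKM, and the pan-leukocyte gene Ptprc was at most 0.0678 FPKM. The macrophage marker Cd68 had 5.69, 4.56 and 5.54 FPKM in GSK4112 replicates 1, 2 and 3, against 4.47, 2.67 and 2.20 FPKM in control replicates 1, 2 and 3. Its GSK4112 libraries thus also lay above its control libraries, as did those of Ptprc. The groups overlapped for Lyz2, Tyrobp, Csf1r, Adgre1, Cd52 and Itgam. Cd68 was highest in replicate 1 of both groups, whereas Itgb3 was lowest there. The part of Cd68 in the Itgb3 values was not tested.

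Itgb5, another beta partner of the Itgav product and a vitronectin receptor subunit, is ENSMUSG00000022817 at chr16:33829665-33949338. It had 226.5, 110.6 and 124.8 FPKM in GSK4112 replicates 1, 2 and 3 and 363.5, 145.7 and 137.4 FPKM in control replicates 1, 2 and 3. Replicate 1 was the highest library in both groups, and the spread within each group was larger than the distance between the means. The log2(FPKM + 1) difference was -0.40 ± 0.434 (SE). With 1 library left out it ranged from -0.72, without GSK4112 replicate 1, to 0.05, without control replicate 1, with -0.61 and -0.65 without control replicates 2 and 3 and -0.20 without GSK4112 replicate 2. It was -0.27 without both replicate 1 libraries.

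The smooth muscle actin gene Acta2, one of the stromal markers and, like Itgb5, highest in replicate 1 of both groups, was at 125, 63.7 and 76.9 FPKM in GSK4112 replicates 1, 2 and 3 and 234, 44.5 and 46.9 FPKM in control replicates 1, 2 and 3. Its part in the Itgb5 values was not tested.

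Itga9, whose product pairs with that of Itgb1 to bind tenascin, osteopontin and other ligands, is ENSMUSG00000039115 at chr9:118606690-118901003. It was at 8.58, 6.08 and 5.5 FPKM in GSK4112 replicates 1, 2 and 3, against 10.8, 16.9 and 18.2 FPKM in control replicates 1, 2 and 3. Overlap was absent, but replicate 1 was the highest GSK4112 library and the lowest control library. The mean was 6.72 ± 1.64 FPKM with GSK4112 and 15.3 ± 3.94 FPKM in control cells (SD, n = 3 each), a ratio of 0.439. Its log2(FPKM + 1) difference was -1.07 ± 0.225 (SE) over all libraries and -1.45 without both replicate 1 libraries. Within replicate 1 it was -0.30, and within replicates 2 and 3 it was -1.34 and -1.56.

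Itgb1, the common beta subunit, is ENSMUSG00000025809 at chr8:128685654-128733200 and ranked 122 among all genes by mean FPKM, ahead of Itgb5 at rank 191. Its level was 265.7, 259.1 and 247.2 FPKM in GSK4112 replicates 1, 2 and 3 and 284.2, 262.1 and 259.5 FPKM in control replicates 1, 2 and 3. The groups overlapped and the log2(FPKM + 1) difference was -0.06 ± 0.0890 (SE).

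**Figure D2:**
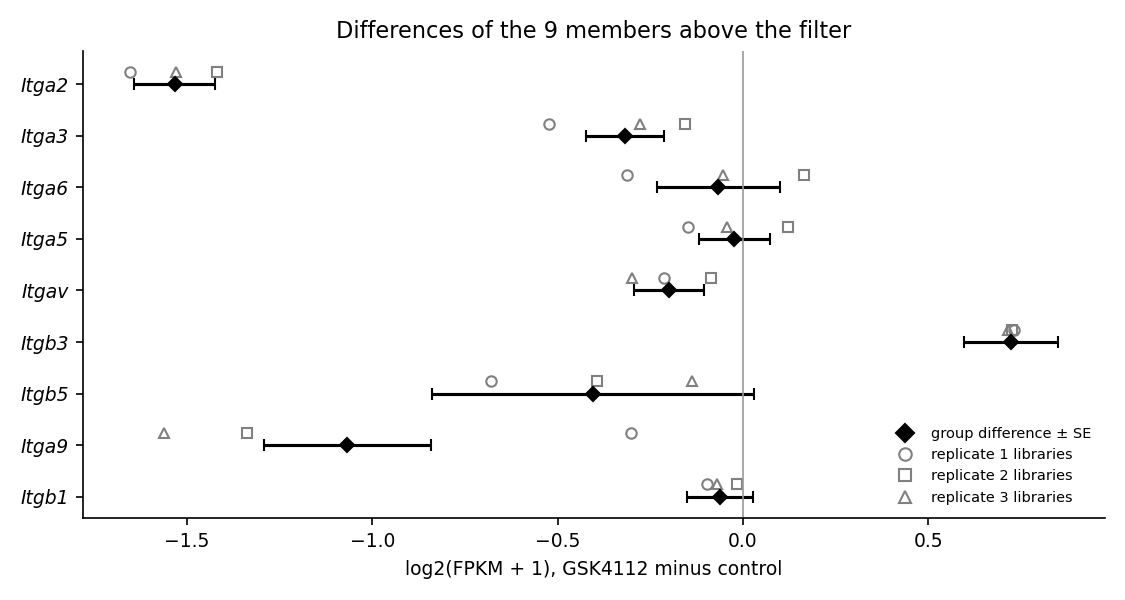
Difference in log2(FPKM + 1), GSK4112 minus control, for the 9 integrin subunits with a mean of at least 1 FPKM: black diamonds with bars give the group difference ± SE of limma (n = 3 each), and open symbols the difference within each replicate number. Itga2 lies at -1.53 with all 3 open symbols close to it, Itgb3 at 0.72, and Itga9 at -1.07 with replicate 1 apart at -0.30.

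Over all 10 genes the mean was lower in GSK4112 cells for 9 and higher for 1, and 7 were lower in all 3 same-numbered pairs. These directions were not counted over all genes, and the pairs rest on the replicate numbers alone. The groups did not overlap for 6 of the 10, and for 5 of the 9 that passed the filter, beside 15.4% of the 27151 genes of the table and 23.6% of the 12181 genes that passed it. A gene was called where limma gave a Benjamini-Hochberg adjusted p under 0.05 over those 12181 genes. Itga2 was called, lower, so 1 of 9, beside 1.03% of all genes, of which 0.41% were higher and 0.624% lower in GSK4112 cells. With the replicate number as a block the calls were Itga2 and Itga9, lower, and Itgb3, higher, so 3 of 9, beside 6.89% of all genes, with 3.07% higher and 3.82% lower. The same 3 were called without both replicate 1 libraries, where 6.92% of 12095 genes were called, 3.17% higher and 3.75% lower. Since these genes were listed with this contrast in view, nothing is read from the counts. The call of Itga2 ended without control replicate 3, GSK4112 replicate 2 or GSK4112 replicate 3, where its log2 difference was -1.56, -1.53 and -1.51, and Itga9 was called without control replicate 1, at -1.28. The median log2 difference of all genes that passed the filter was 0.05.

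The order of levels was shared by the groups at the top and differed lower down. In GSK4112 cells Itgb1 (247.2 to 265.7 FPKM) stood above Itgb5 (110.6 to 226.5 FPKM), Itga5, Itga3, Itgav, Itga6, Itgb3, Itga9, Itga2 and Itga1. The ranges of the neighbours Itga3 and Itgav, Itga6 and Itgb3, and Itgb3 and Itga9 overlapped in these libraries, and those of the other neighbours did not. In control cells Itgb1, Itgb5, Itga5, Itga3 and Itgav were followed by Itga9, Itga6, Itga2, Itgb3 and Itga1. There the ranges overlapped for Itgb1 and Itgb5, Itga3 and Itgav, Itgav and Itga9, Itga9 and Itga6, and Itga6 and Itga2. Itga2 was below Itgb3 in each GSK4112 library and above it in each control library.

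The members of each ligand class were summed on the FPKM scale. The collagen-binding and laminin-binding sums hold alpha genes only, whereas the RGD-binding sum also holds the beta genes Itgb3 and Itgb5. The sums are therefore set against each other between the groups and not between the classes. The collagen-binding pair Itga1 and Itga2 summed to 2.64, 2.35 and 2.24 FPKM in GSK4112 replicates 1, 2 and 3, against 10.0, 7.87 and 8.43 FPKM in control replicates 1, 2 and 3. The ratio of the means was 0.275, and 0.282 without both replicate 1 libraries. Nearly all of the sum was Itga2.

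The laminin-binding pair Itga3 and Itga6 summed to 26.8, 26 and 25.4 FPKM in GSK4112 replicates 1, 2 and 3, against 37.2, 27.0 and 29.6 FPKM in control replicates 1, 2 and 3. GSK4112 replicate 1 was just below control replicate 2, and the ratio of 0.834 was 0.909 without both replicate 1 libraries. The RGD-binding genes Itga5, Itgav, Itgb3 and Itgb5 summed to 281, 166 and 176 FPKM in GSK4112 replicates 1, 2 and 3 and to 421, 195 and 190 FPKM in control replicates 1, 2 and 3, with a ratio of 0.772 and overlapping groups. Most of that sum was Itgb5. Without it the RGD sum was 53.6 ± 2.03 FPKM with GSK4112 and 53.3 ± 4.09 FPKM in control cells (SD, n = 3 each).

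The 7 alpha genes together amounted to 81.1 ± 4.27 FPKM with GSK4112 and 104 ± 7.76 FPKM in control cells (SD, n = 3 each), with no overlap. The collagen-binding share of that sum was 2.97 ± 0.0973% with GSK4112 and 8.38 ± 0.478% in control cells, and the RGD-binding share was 56.7 ± 0.860% with GSK4112 and 47.0 ± 1.07% in control cells. Neither share overlapped between the groups. The means of Itga5 and Itgav, the RGD-binding alpha genes, were not higher with GSK4112, at log2(FPKM + 1) differences of -0.02 and -0.20. Their higher share was therefore a share of a lower alpha sum. The laminin-binding share was 32.2 ± 0.874% with GSK4112 and 29.8 ± 2.95% in control cells, and that of Itga9 was 8.23 ± 1.56% with GSK4112 and 14.8 ± 4.50% in control cells, both with overlapping groups. Itgb1 exceeded the summed alpha genes 3.17 ± 0.0621 times with GSK4112 and 2.58 ± 0.124 times in control cells, without overlap. Itgb1 itself was not higher with GSK4112, at a mean of 257 FPKM against 269 FPKM in control cells. In both groups, then, the FPKM of the common beta subunit was above that of all its listed alpha partners together. In libraries from bulk cells, fewer cells of a type and less RNA per cell cannot be told apart, and these are shares of RNA and not of protein.

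**Figure D3:**
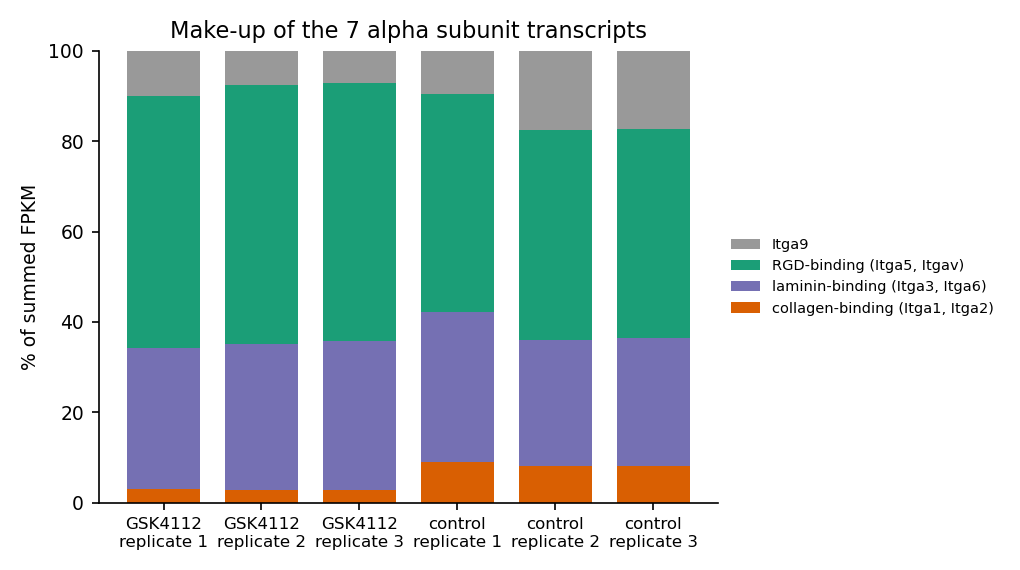
Share of the summed FPKM of the 7 alpha subunit genes (vertical axis, %) held by collagen-binding, laminin-binding and RGD-binding genes and by Itga9, as 1 bar for each library, GSK4112 left of control. The collagen-binding share lies at 2.91 to 3.08% in the GSK4112 libraries and at 8.05 to 8.93% in the control libraries, and the Itga9 share of control replicate 1, at 9.65%, is near those of the GSK4112 libraries.

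Ratios were also taken between subunits that share a partner or a ligand. Itgb5 and Itgb3 encode 2 of the beta partners of the Itgav product. Their FPKM ratio, Itgb5 to Itgb3, was 32.9, 12.6 and 17.2 in GSK4112 replicates 1, 2 and 3. In control replicates 1, 2 and 3 it was 97.1, 29.7 and 34.0. Within each replicate number the ratio was lower with GSK4112, but GSK4112 replicate 1 lay above control replicate 2. The ratio of Itga5 to Itgav was 1.89 ± 0.125 with GSK4112 and 1.66 ± 0.0724 in control cells (SD, n = 3 each), without overlap. That of Itga3 to Itga6 was 1.88 ± 0.183 with GSK4112 and 2.26 ± 0.253 in control cells, with overlapping groups.

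Of the 16 other integrin subunit genes of the mouse, Itga11 had a mean of at least 1 FPKM and the other 15 did not. Itga11 encodes the alpha subunit of a receptor for fibrillar collagens typical of fibroblasts, and fell with GSK4112. It had 1.18, 1.66 and 1.88 FPKM in GSK4112 replicates 1, 2 and 3, against 3.87, 3.85 and 3.70 FPKM in control replicates 1, 2 and 3. The groups were apart, with a log2(FPKM + 1) difference of -0.91 ± 0.135 (SE) and a limma adjusted p of 0.0426, or 0.0161 with the replicate block. The call was kept without GSK4112 replicate 1 and ended without any other library, with limma adjusted p-values between 0.0628 and 0.207. The stromal marker sum given above was mostly Acta2 and differed between replicate numbers. It overlapped between the groups, at 74.2 to 144 FPKM with GSK4112 and 54.8 to 268 FPKM in control cells. The part of that sum in the Itga11 values was not tested.

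With Itga11 and Itga10, the 4 genes for collagen-binding alpha subunits summed to 4.34 ± 0.175 FPKM with GSK4112 and 12.8 ± 1.14 FPKM in control cells (SD, n = 3 each), a ratio of 0.338. Itga10, a collagen receptor subunit of cartilage, was at 0.357 ± 0.0268 FPKM with GSK4112 and 0.261 ± 0.0770 FPKM in control cells, with overlapping groups. The 5 genes of the leukocyte family, Itgb2, Itgal, Itgam, Itgax and Itgad, lay between 0 and 1.63 FPKM in all 6 libraries. Itgb8, an Itgav partner, averaged 0.847 ± 0.148 FPKM with GSK4112 and 1.04 ± 0.317 FPKM in control cells (SD, n = 3 each).

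**Figure D4:**
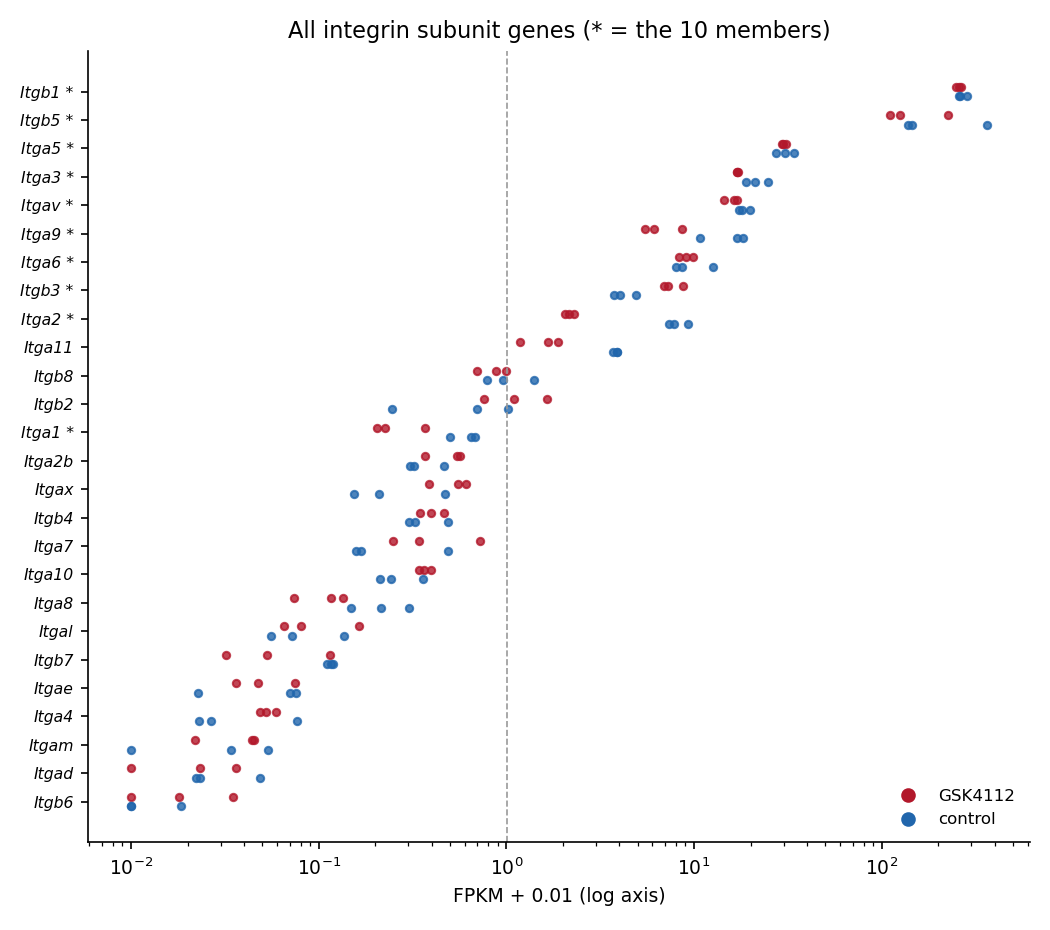
Level of all 26 integrin subunit genes in each library, as FPKM + 0.01 on a log axis, GSK4112 in red above control in blue, ordered by mean, with the dashed line at 1 FPKM and a star on the 10 genes described here. Itgb1 and Itgb5 stand highest, Itga11 is the most abundant unstarred gene, and Itga1 is the starred gene left of the line.

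Genes of the wider integrin system were taken from 12 lists of ligands, activators, adaptors, limiters and partners, of which 106 genes passed the filter. In this set 4 genes fell with GSK4112, Itga11 among them, and 0 rose, which is 3.77% beside the 1.03% over all genes. With the replicate block 18 were called, 3 higher and 15 lower, which is 17.0% beside 6.89%. At an unadjusted limma p under 0.05 there were 7 higher and 15 lower, and limma-voom called 7 genes, adding Thbs1, lower, and Parvb and Slc3a2, higher, to the same 4. The groups did not overlap for 28.3% of the 106, beside 23.6% of all genes. The lists were chosen with earlier results of these data known, so no excess is read from these shares.

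Ligand genes did not pass the test in the fit without the block. Of 11 collagen genes tested limma called 0, with 0 at an unadjusted p under 0.05 and 0 by limma-voom, with a median log2 difference of 0.05. The type IV collagen genes of the basal lamina were the most abundant of them, Col4a1 at 177 ± 69.8 FPKM with GSK4112 and 158 ± 57.4 FPKM in control cells, and Col4a2 at 122 ± 38.4 FPKM with GSK4112 and 110 ± 30.7 FPKM in control cells (SD, n = 3 each). Of 7 laminin chain genes limma called 0, with 1 at an unadjusted p under 0.05 and 0 by limma-voom, with a median of -0.34. The most abundant, Lamb2, was at 77.9 ± 14.2 FPKM with GSK4112 and 72.2 ± 8.95 FPKM in control cells. Lama1, an alpha chain of early basal laminae, was at 23.2 ± 1.64 FPKM with GSK4112 and 42.5 ± 13.0 FPKM in control cells, with a limma adjusted p of 0.132, and of 0.0375 with the block.

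Of 14 ligand genes of RGD-binding integrins limma called 0, with 2 at an unadjusted p under 0.05 and 1, Thbs1, by limma-voom. The median log2 difference was -0.09. Thbs1, the gene for the matricellular protein thrombospondin, was the most abundant at 543, 529 and 496 FPKM in GSK4112 replicates 1, 2 and 3, against 1540.4, 912 and 1225 FPKM in control replicates 1, 2 and 3. All GSK4112 libraries were below all control libraries, with a log2 difference of -1.20 ± 0.199 (SE), yet the limma adjusted p was 0.0539, and 0.0194 with the block. Ccn1, a matricellular integrin ligand, was at 200 ± 138 FPKM with GSK4112 and 346 ± 134 FPKM in control cells (SD, n = 3 each), with a limma adjusted p of 0.383, or 0.0290 with the block. The gene of tenascin C, Tnc, a ligand of the Itga9 receptor, was at 10.1 ± 3.63 FPKM with GSK4112 and 16.5 ± 6.67 FPKM in control cells, with a limma adjusted p of 0.364, or 0.0199 with the block. Tnc had replicate 1 as the highest library of both groups, at 14.3 FPKM with GSK4112 and 24.0 FPKM in control cells.

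For the genes that switch integrins on or hold them to actin, the fit without the block made no call. Of 5 activators limma called 0, with 1 at an unadjusted p under 0.05 and 0 by limma-voom, with a median log2 difference of -0.04. Tln1, the gene of talin, was at 61.8 ± 10.6 FPKM with GSK4112 and 77.4 ± 14.0 FPKM in control cells, and Fermt2, that of a kindlin, at 49.4 ± 1.43 FPKM with GSK4112 and 64.8 ± 8.18 FPKM in control cells (SD, n = 3 each). Of 12 actin linkers it also called 0, with 1 at an unadjusted p under 0.05 and 0 by limma-voom. Flna, for filamin, was at 178 ± 27.5 FPKM with GSK4112 and 203 ± 29.8 FPKM in control cells. Actn1, for alpha-actinin, was at 62.3 ± 28.4 FPKM with GSK4112 and 97.7 ± 36.4 FPKM in control cells, with a limma adjusted p of 0.394, or 0.0148 with the block.

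In the complex of ILK, PINCH and parvin limma called 0 of 5 genes, with 1 at an unadjusted p under 0.05 and 1, Parvb, by limma-voom. Its most abundant genes were Lims1, for PINCH, at 45.7 ± 3.60 FPKM with GSK4112 and 48.9 ± 2.58 FPKM in control cells, and Parva, a parvin, at 22.5 ± 3.65 FPKM with GSK4112 and 26.3 ± 3.49 FPKM in control cells (SD, n = 3 each). A further parvin, Parvb, was at 15.9 ± 0.708 FPKM with GSK4112 and 9.11 ± 1.56 FPKM in control cells, with a limma adjusted p of 0.0545, or 0.0236 with the block. The kinase gene Ilk itself was listed at 0.0219 to 0.161 FPKM. Of its 2744 exon bases 2106 overlap Taf10 on the opposite strand, and with the strand setting of the counting not given, no level is drawn from it.

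Among 15 genes for FAK, SRC and adaptor proteins 1 fell and 0 rose, with a median log2 difference of 0.10. Nedd9, a docking protein of focal adhesions, had 22.5, 16.1 and 16.8 FPKM in GSK4112 replicates 1, 2 and 3, against 33.9, 37.9 and 35.2 FPKM in control replicates 1, 2 and 3. The groups were well apart, with a log2(FPKM + 1) difference of -0.93 ± 0.134 (SE) and a limma adjusted p of 0.0421, or 0.0153 with the block. The call held without GSK4112 replicate 1, and without any other library the limma adjusted p was between 0.0551 and 0.216. Its relative Bcar1 was at 56.4 ± 14.3 FPKM with GSK4112 and 74.3 ± 19.8 FPKM in control cells (SD, n = 3 each), with a limma adjusted p of 0.447, or 0.0484 with the block. The adaptor gene Crk was at 40.6 ± 3.09 FPKM with GSK4112 and 37.8 ± 1.13 FPKM in control cells.

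Receptors for matrix outside the integrin family held the other 2 called genes. Of 9 such genes 2 fell and 0 rose, with a median log2 difference of -0.48, and 5 were called, all lower, with the block. The syndecans are proteoglycans that act beside integrins at adhesion sites. Sdc4 had 106, 82.5 and 83.0 FPKM in GSK4112 replicates 1, 2 and 3, against 174, 164 and 149 FPKM in control replicates 1, 2 and 3. The groups were apart by more than the spread within either, and the log2(FPKM + 1) difference was -0.84 ± 0.126 (SE) with a limma adjusted p of 0.0443, or 0.00991 with the block.

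Sdc2 had 22.3, 21.2 and 22.1 FPKM in GSK4112 replicates 1, 2 and 3, against 34.8, 31.0 and 34.1 FPKM in control replicates 1, 2 and 3. The spread in each group was again small beside the distance between them, and the log2 difference was -0.58 ± 0.0779 (SE) with a limma adjusted p of 0.0368, or 0.0148 with the block. Both calls were sensitive to single libraries. That of Sdc2 ended without any 1 of the 6, at limma adjusted p-values between 0.0508 and 0.207, and that of Sdc4 ended without any but GSK4112 replicate 1, at 0.0621 to 0.230.

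Dag1, for the laminin receptor dystroglycan, was the most abundant of these receptors at 302, 213 and 212 FPKM in GSK4112 replicates 1, 2 and 3, against 499, 332 and 363 FPKM in control replicates 1, 2 and 3. Every GSK4112 library was below every control library, but the limma adjusted p was 0.158, or 0.0199 with the block. Bcam, another laminin receptor, was at 12.8 ± 1.50 FPKM with GSK4112 and 24.4 ± 5.25 FPKM in control cells, with a limma adjusted p of 0.0676, or 0.0147 with the block. The collagen receptor kinase gene Ddr1 was at 99.4 ± 11.0 FPKM with GSK4112 and 140 ± 27.8 FPKM in control cells (SD, n = 3 each), with a limma adjusted p of 0.201, or 0.0424 with the block.

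Among 7 inhibitors and limiters limma called 0, with 3 at an unadjusted p under 0.05 and 0 by limma-voom. Itgb1bp1, whose product binds the tail of the Itgb1 subunit in competition with talin, was at 7.26 ± 0.664 FPKM with GSK4112 and 4.64 ± 0.840 FPKM in control cells (SD, n = 3 each), with a limma adjusted p of 0.108, or 0.0256 with the block. The most abundant, Kank2 and Dok1, were at 49.4 ± 3.26 and 11.8 ± 0.865 FPKM with GSK4112 and at 49.0 ± 4.05 and 13.3 ± 2.11 FPKM in control cells. Of 10 trafficking genes it called 0, with 2 at an unadjusted p under 0.05 and 0 by limma-voom. The endosomal genes Rab5a and Gipc1 were at 61.6 ± 7.52 and 60.0 ± 3.24 FPKM with GSK4112 and at 56.7 ± 9.32 and 53.0 ± 7.25 FPKM in control cells. Dab2, an adaptor for clathrin-mediated uptake of integrins, was at 14.6 ± 1.18 FPKM with GSK4112 and 30.9 ± 7.74 FPKM in control cells, with a limma adjusted p of 0.0641, or 0.0148 with the block.

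Of 10 membrane partners limma called 0, with 3 at an unadjusted p under 0.05 and 1, Slc3a2, by limma-voom. Slc3a2, the heavy chain of the CD98 amino acid transporter that also binds integrin beta tails, had 109, 87.8 and 93.2 FPKM in GSK4112 replicates 1, 2 and 3, against 64.8, 51.4 and 53.9 FPKM in control replicates 1, 2 and 3. The groups did not overlap, and the limma adjusted p was 0.0526, or 0.00815 with the block. Cav1, the gene of caveolin, was at 21.7 ± 6.07 FPKM with GSK4112 and 31.5 ± 9.37 FPKM in control cells (SD, n = 3 each), with a limma adjusted p of 0.357, or 0.0199 with the block. The most abundant partners were Bsg, for basigin, at 249 ± 14.8 FPKM with GSK4112 and 331 ± 114 FPKM in control cells, and the tetraspanin gene Cd63, at 129 ± 9.04 FPKM with GSK4112 and 96.1 ± 22.5 FPKM in control cells.

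**Figure D5:**
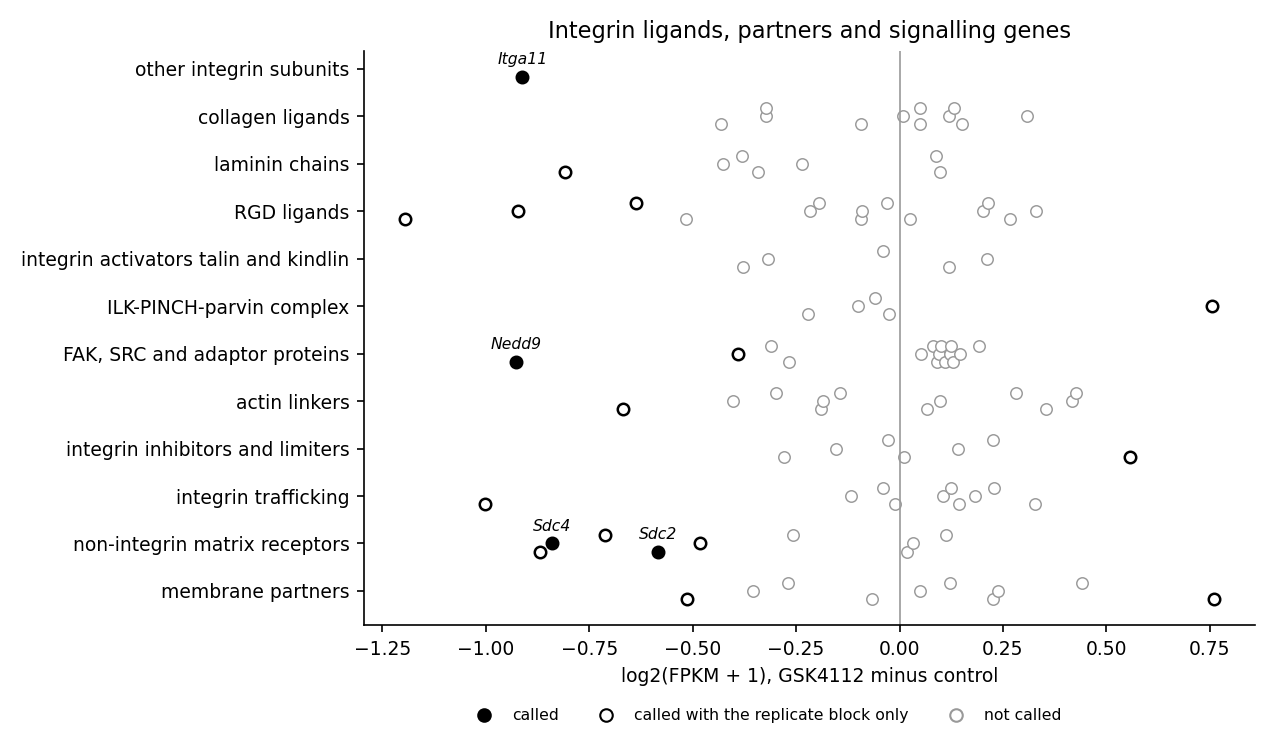
Difference in log2(FPKM + 1), GSK4112 minus control, for the 106 tested genes of the 12 integrin-system lists, 1 row for each list: filled circles were called by limma, thick open circles were called with the replicate block alone, and thin circles were not called. The 4 filled circles, Itga11, Nedd9, Sdc4 and Sdc2, all lie left of 0, and the RGD ligand Thbs1 lies farthest left, at -1.20.

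Likeness of pattern was measured as the root-mean-square difference in log2(FPKM + 1) over the 6 libraries after each gene was centred on its mean, among 7497 named genes with a mean of at least 5 FPKM. It is a description, since every gene is read from the same 6 libraries and the same 2 groups. Itga2 was nearest to Hsd17b1, an estradiol-making enzyme of granulosa cells, at 0.157, followed by Cables1 at 0.158, Vnn1 at 0.17 and Foxo1 at 0.176. Hsd17b1 had 29.4, 21.6 and 24.7 FPKM in GSK4112 replicates 1, 2 and 3, against 72.4, 62.0 and 58.4 FPKM in control replicates 1, 2 and 3, and Foxo1, a forkhead transcription factor gene, averaged 9.78 ± 0.343 FPKM with GSK4112 and 24.9 ± 3.27 FPKM in control cells (SD, n = 3 each). Itgb1 was nearest to Mrpl41 at 0.0255, Ldah at 0.0258, Rtl6 at 0.0282 and Dnajb1 at 0.0291, genes with little difference between any libraries.

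Among the 9 subunits in the fit, the closest pair was Itga5 and Itgb1 at 0.0638. Their log2 differences between the groups were small, at -0.02 and -0.06. By this measure genes that vary little lie close whatever their relation, so the value is not read as shared regulation. Itgav was nearest to Itgb1 at 0.0808, Itga3 to Itgav at 0.107 and Itga6 to Itga5 at 0.117. The others had no near neighbour in the list, Itga2 and Itga9 being nearest to each other at 0.409, Itgb5 to Itga6 at 0.422 and Itgb3 to Itgb1 at 0.423.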

How the data were processed

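Libraries from 3 GSK4112 and 3 control samples of cultured mouse granulosa cells were grouped by their titles. The deposited table gives FPKM per Ensembl gene, normalised by the authors to exon length and library size, per the file headers. The build is GRCm38 per the submitters' processing notes. Which aligner, counter, annotation and strand setting were used is not given in the sources used here. GENCODE release M21 supplied symbols and coordinates for 27098 of 27151 IDs. Promoter sequences are from RefSeq on GRCm38.p6.

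Depth was recovered from the FPKM steps: with 16559259 to 18158282 fragments per library, 92.8 to 93.1% of values under 500 fragments were whole within 0.01. The 12181 genes whose mean FPKM was 1 or more entered a fit of log2(FPKM + 1) by limma 3.58.1 (R 4.3.3), with a variance trend and no block, 2-sided, called at a Benjamini-Hochberg adjusted p under 0.05. The fit was tested on simulated data whose noise was independent between libraries. That test therefore does not cover the deviation shared by the replicate 1 libraries. For a single gene an exact permutation test of 3 against 3 cannot go below 0.1. Tables were handled in Python 3.11.15 with pandas 2.3.3 and figures drawn with matplotlib 3.10.9.

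Replicate numbers occur in both groups. Deviations from the group means correlated at 0.665, 0.326 and 0.213 for numbers 1, 2 and 3, each above the limit of 0.1. The numbers were therefore treated as pairing the samples, from the values and not from a label. Deviations cancel out within a group of 3. With replicate 1 apart in both groups, the correlations among numbers 2 and 3 are raised whatever their pairing. For these numbers the limit therefore could not test it. GSK4112 replicate 2 correlated more with control replicate 3, at 0.530, and GSK4112 replicate 3 more with control replicate 2, at 0.357, than with their own numbers, so for numbers 2 and 3 the values do not favour this pairing over the crossed one. The block fit is given where it changes a call. It rests on the pairing by number, as do the differences within same-numbered libraries.

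The 10 subunits and all lists were chosen with earlier results of these data known. The genes named are the 10 subunits, other subunits with a mean of at least 1 FPKM, and from each list every called gene and the 2 most abundant. Other genes, namely those called with the block alone, markers, low subunits, Ilk and genes overlapping a named gene, were chosen after their values were seen. Alternatives were pseudocounts of 0.1 and 0.5, other filters, TPM, median-of-ratios and quantile scaling, no trend, sample weights, the block, each library left out, both replicate 1 libraries left out, and limma-voom on the recovered fragments.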

Additional observations from a re-analysis of the deposited data

How the results depend on the processing

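Over all genes 126 were called. That count was 26 with no filter on low values, 830 with sample weights, 839 with the replicate block and 837 without both replicate 1 libraries, and ranged from 0 to 149 when 1 library was left out. It was 0 without control replicate 3, GSK4112 replicate 2 or GSK4112 replicate 3, where 1841, 1219 and 1315 genes had an unadjusted limma p under 0.05, and 8 without control replicate 2. The split of 50 higher and 76 lower became 44 and 117 with median-of-ratios scaling and 470 and 360 with sample weights. Of the integrin subunits 1 was called, against 3 with sample weights, 3 with the replicate block, 3 without both replicate 1 libraries, 2 with limma-voom and 0 to 2 with 1 library left out. Of the integrin-system genes 4 were called, against 0 with no filter, 7 with quantile normalization, 16 with sample weights, 18 with the block, 19 without both replicate 1 libraries, 7 with limma-voom and 0 to 3 with 1 library left out. Their split of 0 higher and 4 lower became 2 higher and 0 lower without control replicate 1, and 6 higher and 10 lower with sample weights. The cause of these changes was not tested.

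Log2 differences near 0 changed sign for genes that were not called. With 1 library left out, Col4a1 ranged from -0.15 to 0.43, with -0.0095 without control replicate 2, Col4a2 from -0.11 to 0.35, Lamb2 from -0.0065 to 0.26, Rab5a from -0.0167 to 0.22 and Kank2 from -0.0346 to 0.075. Kank2 was also -0.0519 with median-of-ratios scaling, and -0.0095, -0.0080 and -0.0253 without control replicate 2, GSK4112 replicate 2 and GSK4112 replicate 3. Itga2, Itga3, Itgav, Itgb1, Itgb3 and Itga9 kept their sign in all 18 alternatives, Itgb5 in 17, and Itga5 and Itga6 in 15. Itga2 was called in 15 of 18, Itgb3 in 4 and Itga9 in 4. The ratio of the collagen-binding sums stayed at 0.275 to 0.282 under TPM scaling and without both replicate 1 libraries. Of 611 values for single named genes under the alternatives, 552 kept their direction and their side of the threshold or stayed within the replicate spread. The block changed no call of a named gene beyond those given with it above. Depth limits Itga1, at 63 to 227 fragments, and the subunits below 1 FPKM.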
